A study of Bos taurus with 15 samples.

Results

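Bovine morulae that carried only an oocyte genome were compared with morulae made with a sperm, across all genes counted by RNA-seq. A morula is the ball of compacting cells that precedes the blastocyst. The comparison used 10 of the 15 libraries of the series: 5 from haploid parthenogenetic embryos (replicates 1, 2, 3, 5 and 6) and 5 from diploid embryos made by intracytoplasmic sperm injection, or ICSI (replicates 1 to 5). The other 5 libraries came from haploid androgenetic morulae, which carry only a sperm genome, and are given below for reference only. Members were all libraries whose labels name them as parthenogenetic haploid or ICSI diploid. Per its title, the study was about androgenetic haploids and their WNT signalling. The labels gave the stage (morula) and the ploidy of each library, and no breed, sire, oocyte donor, embryo number, culture day or batch. Parthenogenetic libraries are titled CHX and ICSI libraries are titled ICSI. Whether CHX names a treatment was not established here, and a treatment of that group alone could not be told apart from the other differences. Parthenogenetic and ICSI embryos differed at once in parental genome, in ploidy and in how development was started, and these cannot be told apart here. Each library is bulk RNA, so fewer cells of a type and less RNA per cell cannot be told apart either.

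Parthenogenetic embryos develop from an activated oocyte without fertilization. Genomic imprinting marks some genes in the germ line so that only the copy from the father or only the copy from the mother is transcribed. A parthenogenetic embryo has no paternal copy, so imprinting is a known difference between such embryos and fertilized ones, and it limits their development. MEG3 and MEG8 are maternally expressed long non-coding RNAs. SNURF, MKRN3 and USP29 are known in mammals as paternally expressed genes.

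The libraries held 25.1 to 29.0 M counts in the parthenogenetic and 19.97 to 26.9 M in the ICSI group. Genes with at least 1 count numbered 16154 to 18899 and 15286 to 19950, respectively. Parthenogenetic replicate 6 and ICSI replicate 5 stood apart, with the fewest genes detected in their groups and the lowest mean Spearman correlation with their own group (0.785 and 0.799, against at least 0.846 for the other 8 libraries). The group difference in genes detected was -748 (exact permutation test, two-sided, p = 0.468). That in the share of counts taken by the 20 highest rows was 1.98 percentage points (exact p = 0.135), and that in correlation with the own group was -0.0284 (exact p = 0.286). None of the 3 passed after adjustment. Without ICSI replicate 5 all 3 passed, at -1631 genes, 2.46 points and -0.0785 (exact permutation test, adjusted p = 0.0159 for each). That library was the extreme of the ICSI group in all 3 measures, so these values are no independent test. Without parthenogenetic replicate 6 the difference in correlation turned sign, to 0.0120 (exact permutation test, adjusted p = 0.857). Levels are given as CPM, the counts of a row relative to the TMM-scaled total of its library.

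Few rows were called different between parthenogenetic and ICSI morulae in the main test, and each of them was lower in the parthenogenetic group. The test was edgeR's quasi-likelihood test, with p-values adjusted over all 15204 tested rows by the Benjamini-Hochberg method and a row called at an adjusted p under 0.05. It called 12 rows lower (0.0789%) and 0 rows higher (0.0%). At an unadjusted p under 0.05 there were 198 lower rows (1.3%) and 255 higher rows (1.68%). Chance alone would give a share of about 0.05 of rows, both directions together, which these counts do not reach. DESeq2 called 28 lower and 3 higher, and limma voom called 18 lower and 0 higher. Among the 12 called rows were SNURF, the NKG2D ligand genes ULBP27 and ULBP3, a predicted protein-coding gene named only LOC112445446, and 8 rows known only by an Ensembl identifier. Some of these 8 rows may hold the same reads as the named ones. All 12 were called again without each of the 10 libraries in turn.

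**Figure D1:**
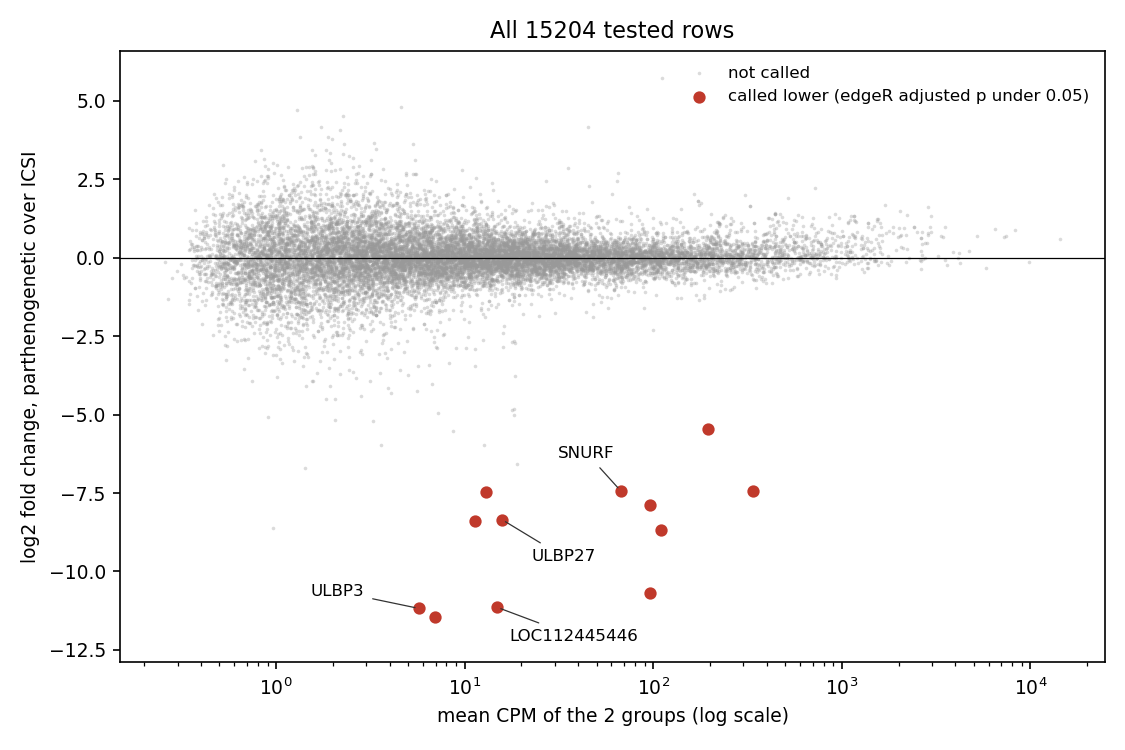
Log2 fold change (parthenogenetic over ICSI) of the 15204 tested rows against the mean CPM of the groups, on a log scale. Red points are the 12 rows called lower by edgeR's quasi-likelihood test, which lie at log2 fold changes of -11.46 to -5.47, and grey points are rows that were not called.

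The rest of the transcriptome was spread about a median log2 fold change of 0.02, with 7837 of 15204 rows (51.5%) positive. Libraries of the groups did not overlap in 77 rows that were lower (0.506%) and 53 that were higher (0.349%). Chance alone separates groups of 5 and 5 in a share of 0.00794 of rows, both directions together. A lack of overlap is therefore not by itself a difference. Of the 554 tested rows with a gene symbol, 3 were called lower and 0 higher. In 6 of these 554 the parthenogenetic libraries all lay below the ICSI libraries (SNURF, ULBP27, ULBP3, PINLYP, TLE1 and H2AFX), and in 1 they all lay above (CLYBL). Apart from the called genes, 3 symbol rows without overlap were lower and 1 was higher.

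SNURF was the imprinted gene among the called rows with a symbol. It is transcribed from the paternal allele together with the splicing protein gene SNRPN, and reads of the 2 genes cannot be told apart. SNURF stood at 1.27, 1.70, 0.669, 0.136 and 0.0537 CPM in parthenogenetic replicates 1, 2, 3, 5 and 6. ICSI replicates 1 to 5 stood at 116, 105, 86.3, 135 and 226 CPM. The groups were far apart in every library: the highest parthenogenetic library had 40 reads counted on the gene and the lowest ICSI library had 2493. The means were 0.767 ± 0.716 (SD, n = 5) and 134 ± 54.3 CPM (n = 5), a 172-fold lower level in parthenogenetic morulae (log2 fold change -7.43 ± 0.79 SE; edgeR adjusted p = 7.75e-04). In the androgenetic libraries SNURF was 216 ± 62.1 CPM (n = 5), on a scale set with all 15 libraries. On that scale its ICSI mean was 119 CPM.

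The long non-coding RNA LOC100848941 lies 2 genes after SNURF in RefSeq order (assembly ARS-UCD2.0), and 26 small nucleolar RNA genes lie within its span. It had 0, 27, 31, 0 and 0 counts in parthenogenetic replicates 1, 2, 3, 5 and 6. The 5 ICSI libraries stood at 10.8, 21.5, 12.96, 11.04 and 13.99 CPM. The groups did not overlap, since the highest parthenogenetic library was at 1.15 CPM. Its log2 fold change of -4.95 ± 1.24 (SE) was not called by edgeR (adjusted p = 0.843), while DESeq2 (adjusted p = 0.00181) and limma voom (adjusted p = 0.0383) called it lower. This row was chosen after its values were seen.

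MKRN3 and USP29, the other listed paternally expressed genes with a row under their symbol, did not follow SNURF. Further such genes may be among the rows with only an Ensembl identifier, which could not be named. MKRN3, a ubiquitin ligase gene 6 genes before SNURF in RefSeq order, had 4.24, 3.70, 1.65, 1.12 and 3.11 CPM in parthenogenetic libraries. In ICSI replicates 1 to 5 MKRN3 had 1.70, 1.31, 3.39, 1.78 and 0 CPM, so the groups overlapped. Its log2 fold change was 0.75 ± 0.96 (SE; edgeR adjusted p = 0.9997), with an interval from -1.32 to 2.82. USP29, a ubiquitin protease gene, had 1.58, 0.298, 0.880, 2.64 and 4.78 CPM in parthenogenetic and 0.455, 2.15, 0.424, 1.54 and 0.995 CPM in ICSI libraries. The log2 fold change of USP29 was 0.87 ± 0.87 (SE; edgeR adjusted p = 0.9997). SNRPN, MAGEL2 and NDN were not analysed here.

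The maternally expressed RNAs MEG3 and MEG8 did not pass the filter on low counts and were not among the tested rows, since they reached its minimum in 3 and 4 libraries, respectively, where 5 were needed. MEG3 had 161, 0, 92, 105 and 0 counts in parthenogenetic replicates 1, 2, 3, 5 and 6, and 0 counts in all 5 ICSI libraries. Against a floor of 3 counts over the whole ICSI group, its parthenogenetic mean of 2.60 ± 2.64 CPM (n = 5) was at least 110.0-fold higher, although 2 of the 5 parthenogenetic libraries were at 0 as well. MEG8 had 150, 3, 60, 81 and 33 counts in parthenogenetic libraries and 5, 5, 9, 0 and 0 in ICSI libraries. Parthenogenetic replicate 2 thus lay within the ICSI range, while the other 4 lay above it. With no filter on low counts, edgeR's quasi-likelihood test called neither MEG3 (unadjusted p = 0.00157, adjusted 0.638) nor MEG8 (unadjusted p = 0.00733, adjusted 0.638).

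XIST, the RNA that coats the inactive X chromosome, was present in all 10 libraries. Its level was 49.9, 29.1, 66.5, 36.3 and 109 CPM in parthenogenetic replicates 1, 2, 3, 5 and 6. ICSI replicates 1 to 5 had 1.28, 22.9, 41.3, 23.4 and 47.5 CPM. Replicate 1 was the low library of the ICSI group, replicates 2 and 4 also lay below the parthenogenetic range, and replicates 3 and 5 lay within it. The log2 fold change was 1.09 ± 0.66 (SE; edgeR unadjusted p = 0.119, adjusted 0.9997).

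**Figure D2:**
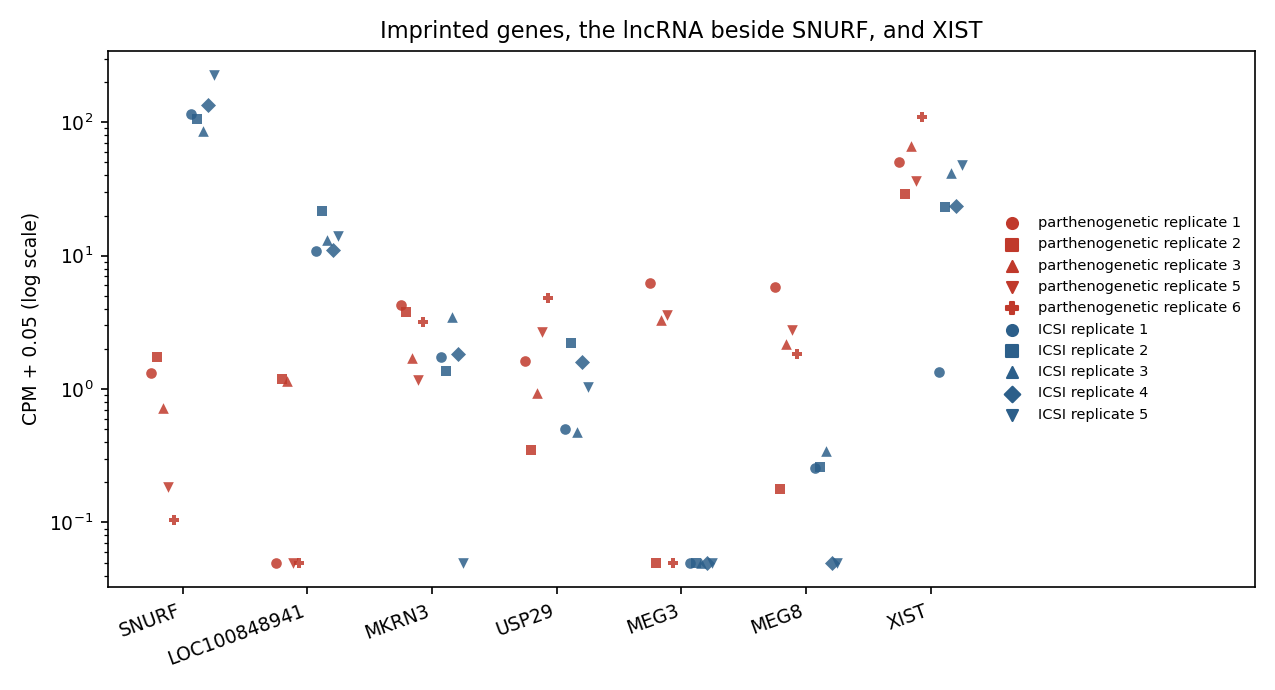
CPM plus 0.05 on a log scale for the imprinted genes, the long non-coding RNA LOC100848941 and XIST, with 1 point per library (red parthenogenetic, blue ICSI; the marker shape gives the replicate number). The groups are separate for SNURF and LOC100848941 and overlap for MKRN3, USP29, MEG8 and XIST, while MEG3 is at 0 counts in all 5 ICSI and 2 parthenogenetic libraries.

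The other called genes with a symbol encode ligands of NKG2D, an activating receptor of natural killer and T cells. ULBP27 had 2, 1, 9, 0 and 0 counts in parthenogenetic replicates 1, 2, 3, 5 and 6. In ICSI replicates 1 to 5 it stood at 83.8, 22.0, 18.8, 15.3 and 17.0 CPM. ICSI replicate 1 was thus several times higher than the other ICSI libraries, and the lowest ICSI library was still far above the highest parthenogenetic one, at 0.317 CPM. Means were 0.0873 ± 0.132 (SD, n = 5) and 31.4 ± 29.4 CPM (n = 5), with a log2 fold change of -8.34 ± 1.02 (SE; edgeR adjusted p = 0.00246). Its size moved with single libraries: it was -9.78 without parthenogenetic replicate 3 and -7.57 without ICSI replicate 1.

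ULBP3 had 0 counts in all 5 parthenogenetic libraries. In ICSI replicates 1 to 5 it stood at 34.98, 5.53, 6.36, 5.61 and 4.82 CPM, again with replicate 1 highest. Against a floor of 3 counts over the parthenogenetic group it was at least 481-fold lower (edgeR adjusted p = 0.0165). The edgeR call was lost with genes detected as a covariate (log2 fold change -11.04, adjusted p = 0.0535) and when the androgenetic libraries shared the fit (-11.03, adjusted p = 0.0944), beside -11.18 as fitted, a value that rests on counts of 0 and is no bound. The third tested member of the family list, RAET1L, had 52, 0, 56, 1 and 2 counts in parthenogenetic and 76, 57, 59, 62 and 9 in ICSI libraries. RAET1L had a log2 fold change of -1.28 ± 1.22 (SE; edgeR adjusted p = 0.9997), and its groups overlapped. Of the 3 tested members 2 were called lower, where 0.0789% of all tested rows were. The list was chosen with earlier results of these data known, so this share is no test. Their median log2 fold change was -8.34, the value of ULBP27 itself, beside 0.02 over all tested rows. Because the NKG2D ligand genes include near-identical copies, which copy a read came from is uncertain.

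LOC112445512, a protein-coding gene 3 genes before ULBP3 in RefSeq order, had 0, 0, 15, 7 and 0 counts in parthenogenetic libraries. In ICSI libraries it had 13, 116, 82, 20 and 93 counts. Its log2 fold change of -4.08 ± 1.38 (SE) was not called (edgeR adjusted p = 0.9997). In CPM the groups were separate by a narrow margin only, with 0.528 in the highest parthenogenetic and 0.538 in the lowest ICSI library. LOC112445446, which RefSeq places on a sequence with no chromosome, was called. It had 1 count in the 5 parthenogenetic libraries together, against 98.9, 16.2, 14.1, 9.40 and 9.48 CPM in ICSI replicates 1 to 5. The ratio of the summed counts, scaled to library size, was 3634, with a counting interval of 651.7 to 143600 (95%, exact; counting error only). Its edgeR adjusted p was 7.80e-04, and its fitted log2 fold change, which rests on that 1 count, was -11.14, moving to -12.59 without parthenogenetic replicate 6 and -9.85 without ICSI replicate 1. Both of these LOC rows were named after their values were seen.

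Among the called rows with no gene name, the lowest p-values belonged to ENSBTAG00000001836 and ENSBTAG00000032079. ENSBTAG00000001836 had 6, 2, 2, 2 and 2 counts in parthenogenetic replicates 1, 2, 3, 5 and 6, against 468, 152, 161, 129 and 54.1 CPM in ICSI replicates 1 to 5. Its log2 fold change was -10.69 ± 0.75 (SE; edgeR adjusted p = 3.11e-05), and -10.05 without ICSI replicate 1. ENSBTAG00000032079 stood at 4.32, 4.47, 6.30, 3.42 and 0.805 CPM in parthenogenetic libraries, against 351, 541, 580, 940 and 929 CPM in ICSI libraries. Its log2 fold change was -7.43 ± 0.59 (SE; edgeR adjusted p = 6.34e-05). No gene name is given for these rows because the sources used here do not pair them with one.

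The 12 called rows fell into separate patterns across the ICSI libraries. In 9 of them, ULBP27, ULBP3, LOC112445446 and ENSBTAG00000001836 included, ICSI replicate 1 was the highest of the 5, at 3.01 to 8.05 times the mean of the other 4. The other 3 rows, SNURF, ENSBTAG00000032079 and another unnamed row, had a ratio of 0.470 to 0.923. ICSI replicate 1 was also the library with the lowest XIST level. In the androgenetic libraries the 3 rows were at 1 CPM or more in all 5, but their levels differed. On a scale set with all 15 libraries, ENSBTAG00000032079 had a mean of 110.5 CPM (20.5 to 199.9), below its ICSI mean of 599. SNURF (216 against 119 CPM) and the other unnamed row (263 against 171 CPM) had higher means than in ICSI libraries. Of the 9 rows, 8 were under 1 CPM in androgenetic replicate 2, 4 in replicate 5 and 4 in replicate 6, and none was under 1 CPM in replicates 1 and 4. These patterns were noticed in the data and have no test. Some rows may share reads, so the 12 may not be 12 separate results. The other unnamed row of the 3 had 101 parthenogenetic counts in all, beside 97 for SNURF. An unnamed row of the 9 had 0 parthenogenetic counts, like ULBP3, and 44.9, 6.46, 6.72, 6.39 and 5.03 CPM in ICSI replicates 1 to 5.

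**Figure D3:**
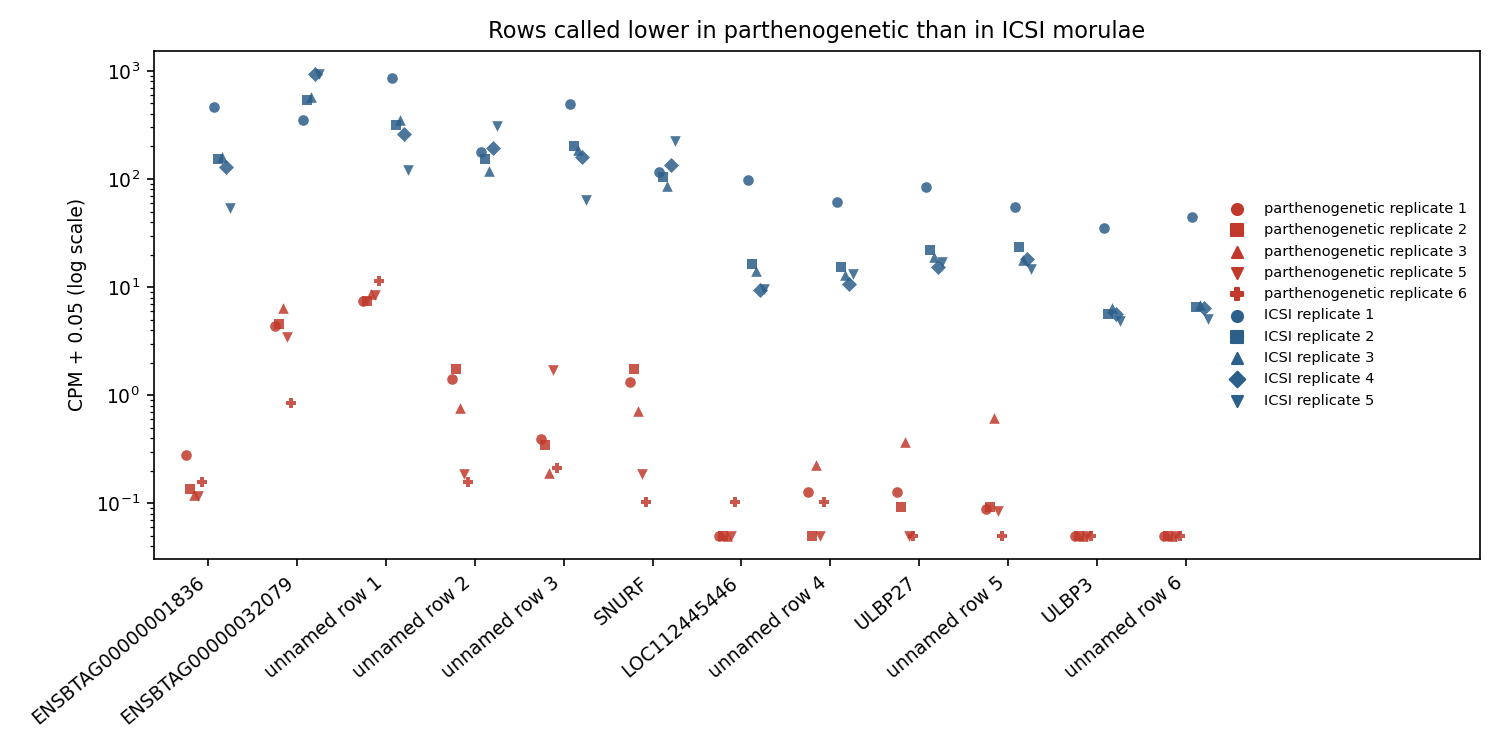
CPM plus 0.05 on a log scale for the 12 rows called lower in parthenogenetic morulae, ordered by p-value, with 1 point per library (red parthenogenetic, blue ICSI; the marker shape gives the replicate number). In every row all ICSI libraries lie above all parthenogenetic libraries, and ICSI replicate 1 (circle) is the highest in 9 rows.

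A count of on-off rows gave the same one-sided picture with no model. Of 6403 rows with at least 5 CPM in every ICSI library, 6 were under 1 CPM in every parthenogenetic library. Of 6198 rows with at least 5 CPM in every parthenogenetic library, 0 were under 1 CPM in every ICSI library. The 6 rows included ULBP27, LOC112445446 and ENSBTAG00000001836, and all 6 were among the called rows. Without ICSI replicate 5 their number was 15.

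Immunoglobulin heavy chain counts were found in ICSI libraries and were nearly absent from parthenogenetic ones. IGHM encodes the constant region of the IgM heavy chain, which B cells make. It had 279, 591, 673, 2208 and 0 counts in ICSI replicates 1 to 5, which is 11.6, 25.0, 22.0, 75.5 and 0 CPM. In parthenogenetic replicates 1, 2, 3, 5 and 6 it had 8, 1, 1, 0 and 0 counts. ICSI replicate 5 thus had none where the other 4 had at least 279. Because it was absent from replicate 5, the row did not pass the filter on low counts and was not among the 15204 tested. With no filter IGHM was called lower by edgeR's quasi-likelihood test (log2 fold change -8.32, adjusted p = 0.0449).

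LOC100301422, LOC101902461 and LOC101908235 are constant region genes in RefSeq, placed 4, 3 and 1 genes before IGHM on chromosome 21 (assembly ARS-UCD2.0). LOC100301422 had 18.4, 40.02, 38.6, 157 and 0 CPM in ICSI replicates 1 to 5 and 3 counts in all parthenogenetic libraries together. The ratio of its summed counts, scaled to library size, was 2372, with a counting interval of 811 to 11510 (95%, exact; counting error only). That interval leaves out the wide spread between ICSI libraries. With no filter it was called lower (edgeR adjusted p = 0.00613). LOC101902461 had 435, 934, 1096, 4358 and 0 counts in the ICSI libraries, close to the 444, 948, 1184, 4589 and 0 of LOC100301422. LOC101908235 differed from IGHM by at most 3 counts in any of the 10 libraries. Which of such copies a read came from is uncertain, so the 4 rows are not 4 separate results. In androgenetic replicates 1, 2, 4, 5 and 6 IGHM stood at 0, 17.0, 1.78, 0 and 0 CPM. No list of B cell markers had been drawn up, and these rows were chosen after their values were seen.

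**Figure D4:**
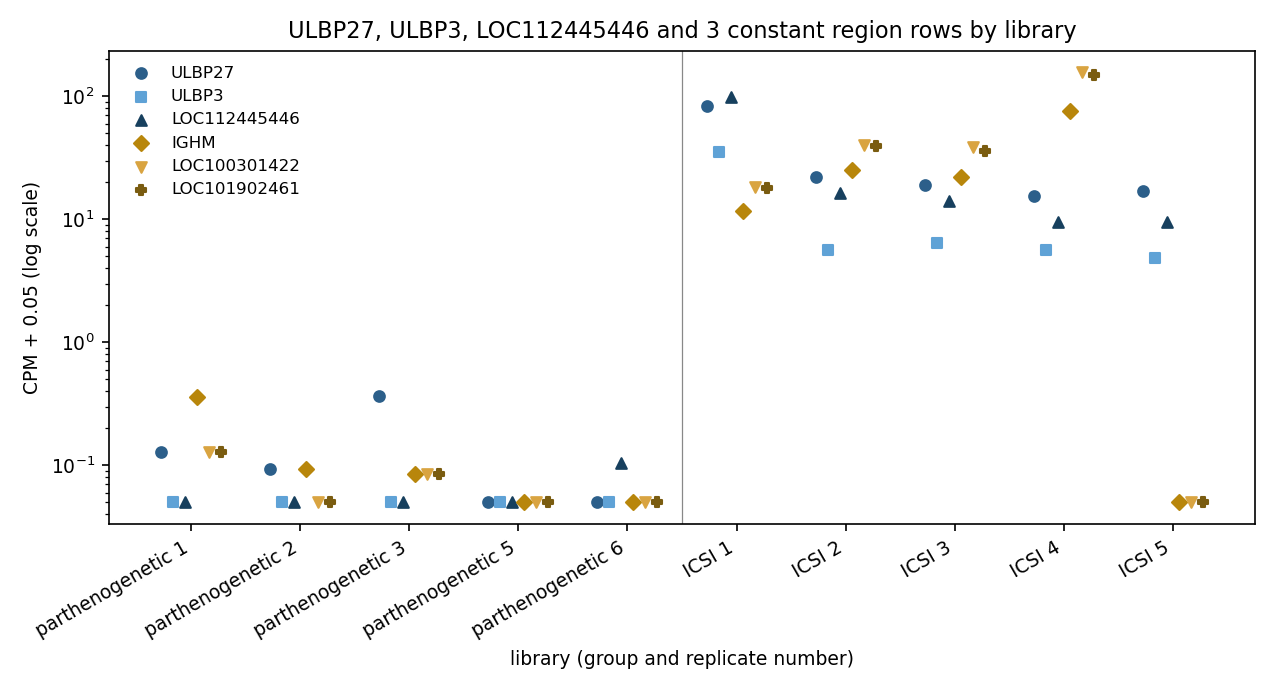
CPM plus 0.05 on a log scale in each of the 10 libraries for ULBP27, ULBP3, LOC112445446 (blue) and the immunoglobulin constant region rows IGHM, LOC100301422 and LOC101902461 (brown). The blue rows are highest in ICSI replicate 1, and the brown rows are highest in ICSI replicate 4 and at 0 in ICSI replicate 5.

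Some genes had large differences that edgeR did not call. SEPT10 (now SEPTIN10) encodes a septin, a GTPase that assembles into filaments. It had 1.27, 0.426, 0.528, 3.79 and 0.161 CPM in parthenogenetic libraries. ICSI replicates 1 to 5 had 1.82, 13.8, 18.3, 28.03 and 115 CPM, so the level varied widely and replicate 1 lay within the parthenogenetic range. Its log2 fold change was -4.82 ± 1.08 (SE; edgeR adjusted p = 0.487) and -3.63 without ICSI replicate 5, while DESeq2 called it lower (adjusted p = 5.59e-05). The long non-coding RNA row LOC101904087 had the same counts as SEPT10 in all 5 ICSI libraries, so the rows may hold the same reads.

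PINLYP, which encodes a phospholipase A2 inhibitor, had 8.99, 2.17, 5.77, 7.38 and 0.483 CPM in parthenogenetic libraries and 77.5, 19.6, 23.6, 24 and 12.8 CPM in ICSI libraries. The groups did not overlap, and ICSI replicate 1 was again the highest. The log2 fold change of PINLYP was -2.66 ± 0.71 (SE; edgeR adjusted p = 0.9997), and DESeq2 called it lower (adjusted p = 0.0465). TLE1, a corepressor that acts on TCF factors of the WNT pathway, had 3.90, 3.11, 4.05, 3.18 and 3.70 CPM in parthenogenetic libraries. TLE1 in ICSI replicates 1 to 5 had 6.79, 13.1, 6.66, 5.26 and 6.76 CPM. The libraries of the groups did not overlap, and the log2 fold change was -1.10 ± 0.47 (SE; edgeR unadjusted p = 0.0367, adjusted 0.9997). The zinc finger gene ZNF804A (-1.66 ± 0.50 SE) and NCBP2-AS2 (-2.24 ± 0.77 SE), which lies antisense to the cap-binding protein gene NCBP2, completed the 8 symbol rows of lowest p among negative differences with a mean of at least 5 CPM in a group. Use of strand in the counting was not stated, so reads of NCBP2-AS2 and NCBP2 cannot be told apart. CFAP221, whose name places it among cilia and flagella associated proteins, had a lower p than some of these genes and missed that minimum, with means of 0.343 ± 0.106 (SD, n = 5) in parthenogenetic and 4.97 ± 7.56 CPM (n = 5) in ICSI libraries. ICSI replicate 5 held 18.4 CPM of CFAP221 and the other 4 held 0.455 to 3.01 CPM. CFAP221 had a log2 fold change of -3.84 ± 1.03 (SE; edgeR unadjusted p = 0.00248, adjusted 0.9997) and -2.23 without that library, and DESeq2 called it lower (adjusted p = 0.0163).

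No gene with a symbol was called higher. CLYBL, a mitochondrial citramalyl-CoA lyase, came closest in p, with 34.0, 20.5, 24.5, 24.4 and 22.1 CPM in parthenogenetic and 17.8, 10.8, 14.7, 10.5 and 9.74 CPM in ICSI libraries. Its parthenogenetic libraries all lay above the ICSI libraries. The log2 fold change of CLYBL was 0.98 ± 0.33 (SE; edgeR unadjusted p = 0.0102, adjusted 0.9997). CHMP1B, of the membrane-scission complex ESCRT-III, stood at 34.8, 32.5, 30.4, 42.5 and 10.8 CPM against 14.99, 21.1, 20.2, 16.2 and 9.43 CPM. Only parthenogenetic replicate 6 overlapped the ICSI libraries in CHMP1B, and the log2 fold change was 0.88 ± 0.39 (SE; edgeR adjusted p = 0.9997). The cell adhesion gene PCDH9 had 1.84 ± 0.80 (SE; edgeR adjusted p = 0.9997), with overlapping groups.

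Histone rows made up 5 of the 8 symbol rows of lowest p among positive differences with a mean of at least 5 CPM in a group, none of them called. HIST1H2AK and HIST2H2AA4 among the 5 are near-identical in counts. With no such minimum C5H22orf46 (log2 fold change 2.95 ± 1.32 SE; edgeR unadjusted p = 0.0425) would rank above 2 of the 5, HIST1H1D and H4C19. Histones package DNA, and most histone mRNAs of dividing cells end without a poly(A) tail, whereas these libraries were made from polyadenylated RNA. Of 16 tested histone rows 13 had a positive log2 fold change and 3 a negative one, with a median of 0.64, beside 51.5% positive and 0.02 over all tested rows. None was called, and 3 had an unadjusted p under 0.05, all of them higher (1.68% of all rows). The H4 gene H4C14 had 529, 2814, 1082, 314 and 1919 CPM in parthenogenetic replicates 1, 2, 3, 5 and 6, against 821, 616, 324, 447 and 345 CPM in ICSI libraries. Replicates 2, 3 and 6 lay above all ICSI libraries, and replicates 1 and 5 did not. The log2 fold change of H4C14 was 1.38 ± 0.53 (SE; edgeR unadjusted p = 0.0220, adjusted 0.9997).

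HIST1H2AK showed the same high libraries, with 258, 1352, 507, 143 and 942 CPM in parthenogenetic and 386, 297, 156, 216 and 154 CPM in ICSI libraries (log2 fold change 1.40 ± 0.54 SE; edgeR adjusted p = 0.9997). HIST2H2AA4 had nearly the same counts as HIST1H2AK (104945 and 105010 over the 10 libraries) and is uncertain as a separate gene. The linker histone gene HIST1H1D (H1-3) had 4.71, 13.8, 40.8, 5.35 and 37.3 CPM against 9.69, 15.8, 5.06, 4.61 and 2.15 CPM. Here parthenogenetic replicates 3 and 6 were the high libraries, and the log2 fold change was 1.45 ± 0.70 (SE; edgeR adjusted p = 0.9997). H4C19, another H4 gene, had 1.27 ± 0.62 (SE; edgeR adjusted p = 0.9997). The variant gene H2AFX (H2AX), which marks sites of DNA damage when phosphorylated, differed the other way at 3.03 ± 0.602 against 5.60 ± 1.41 CPM (n = 5 each). The libraries of the groups did not overlap in H2AFX, and its log2 fold change was -0.89 ± 0.50 (SE; edgeR adjusted p = 0.9997).

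Transcripts of aminoacyl-tRNA synthetases, which charge tRNAs with amino acids, were spread narrowly about 0. Of 18 tested cytosolic genes 8 were positive and 10 negative, with a median of -0.07 and a range of -0.56 to 0.19, and none was called. CARS, the cysteinyl-tRNA synthetase gene, stood at 10.7 ± 2.53 against 15.8 ± 7.93 CPM (n = 5 each), the lower end of that range. RARS, the most abundant of the 18, stood at 321 ± 170 against 442 ± 300 CPM, and its log2 fold change of -0.46 ± 0.49 (SE) was 0.04 without ICSI replicate 5. Of 9 tested septins, SEPT10 included, 4 were positive, with a median of -0.06. The MARCH ubiquitin ligases had 4 of 8 positive and a median of -0.00, and the zinc finger genes 24 of 43 positive and a median of 0.04. Poly(A) and poly(U) polymerases, which extend RNA tails, had 4 of 7 positive and a median of 0.07. Collagens had 5 of 7 positive and a median of 0.07, and meiosis and germline genes 4 of 6 and 0.24. No member of these lists was called in either direction.

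**Figure D5:**
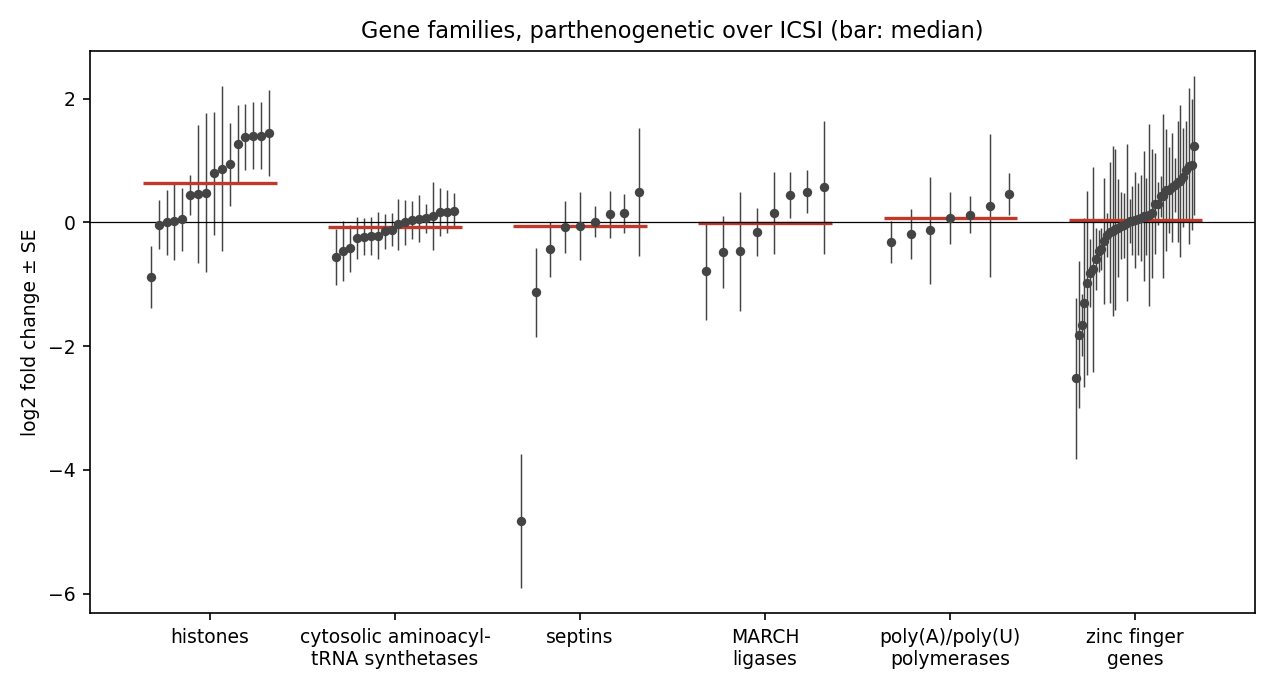
Log2 fold change (parthenogenetic over ICSI) with its standard error for each tested member of 6 gene families, sorted within each family, with a red bar at the family median. Histone rows have a median of 0.64, the medians of the other 5 families lie between -0.07 and 0.07, and SEPT10 at -4.82 is the lowest point.

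Genes of early lineage and genome activation were not called. ARGFX, a PRD-like homeobox gene active in early embryos, stood at 672 ± 305 CPM in parthenogenetic and 639 ± 302 CPM in ICSI libraries (n = 5 each), with an interval of its log2 fold change from -0.77 to 0.92. DUXA, of the same class, had 39.0, 206, 73.0, 111 and 65.6 CPM against 138, 147, 94.5, 162 and 710 CPM. ICSI replicate 5 was far above the rest, and the log2 fold change of -1.34 ± 0.59 (SE; edgeR unadjusted p = 0.0394, adjusted 0.9997) was -0.46 without that library. SOX2, a pluripotency factor, had 2.39, 7.96, 1.51, 5.56 and 9.98 CPM in parthenogenetic and 2.73, 4.05, 2.45, 3.86 and 1.21 CPM in ICSI libraries. Its groups overlapped, with a log2 fold change of 0.94 ± 0.65 (SE; edgeR adjusted p = 0.9997). It was the 1 pluripotency marker with a row under its symbol. Markers of trophectoderm, primitive endoderm, oocyte, cumulus cells and sperm were not analysed here, so the labelled stage could not be checked against them.

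None of the 4 tested WNT pathway genes was called. TNIK, a kinase that acts on TCF-dependent transcription, had 512, 997, 381, 464 and 2334 CPM in parthenogenetic and 288, 482, 268, 416 and 957 CPM in ICSI libraries. Parthenogenetic replicate 6 and ICSI replicate 5 were each high, and the log2 fold change of 0.96 ± 0.53 (SE; edgeR adjusted p = 0.9997) was 0.30 without parthenogenetic replicate 6. NWD2, whose product carries NACHT and WD repeat domains, was likewise high in parthenogenetic replicate 6, at 20.6 CPM, against 1.02 to 4.09 CPM in the other 4 and 1.14 to 4.24 CPM in ICSI libraries. The log2 fold change of NWD2 was 1.66 ± 0.83 (SE; edgeR adjusted p = 0.9997), and 0.43 without that library. The HIPPO targets CTGF (CCN2) and CYR61 (CCN1) had -0.40 ± 0.34 and -0.30 ± 0.61 (SE), and neither was called by edgeR. CEBPG, a transcription factor of the stress response, had -0.74 ± 0.39 (SE), MAD2L1, of the spindle checkpoint, -0.13 ± 0.32, and CNTRL, a centriole gene, -0.27 ± 0.43. The signs of MAD2L1 and CNTRL turned without ICSI replicate 5, at 0.18 for each.

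Spread between libraries set what could be seen. The common biological coefficient of variation was 0.808 over both groups, and it was 0.863 in the parthenogenetic and 0.764 in the ICSI group taken alone. The 95% interval of the log2 fold change lay within a 2-fold change either way in 2300 of 15204 rows (15.1%) and within a 4-fold change in 8312 (54.7%). For rows with a mean of 1 to 5 CPM the median distance from the estimate to its interval bound was 2.12 on the log2 scale, and for rows of 100 CPM or more it was 0.77. These are distances of single intervals, not adjusted for the number of rows, and larger changes were not called either, such as that of H4C14.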

How the data were processed

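Polyadenylated RNA of bovine morulae was amplified (SMART-Seq HT) and libraries were prepared with Nextera XT reagents, per the labels' protocols. Reads went through Trim Galore, cutadapt, STAR and featureCounts, per the submitters' processing notes. Versions, genome build, annotation and strand setting are not given in the sources used here. For this comparison the authors deposited raw counts per gene row and library. Of 31999 rows, 27607 had only an Ensembl identifier (93.6% of the counts), 3614 a LOC number and 778 a symbol. RefSeq (ARS-UCD2.0) matched 3007 rows by name and served for names and gene order only.

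The 10 libraries were fitted alone with edgeR 4.0.16 in R 4.3.3: TMM factors, filterByExpr with the groups, a quasi-likelihood fit and Benjamini-Hochberg adjustment over 15204 rows. CPM values use the same TMM factors. The standard error is the log2 fold change divided by the square root of F, and intervals are 95%. Library measures had exact two-sided permutation tests over 252 arrangements, whose smallest p is 0.00794, with adjustment over the 3 measures. Leaving out a library gives fewer arrangements and a larger smallest p. The code was tested on simulated data. DESeq2 1.42.0 and limma 3.58.1 (voom) were alternatives, with other scaling factors, filters, covariates and left-out libraries. Replicates of a group differed from each other by far more than counting noise. The labels do not say whether they came from separate embryos or animals, so a p-value reflects only the spread between libraries, which may be technical.

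The comparison, its members and its gene lists were chosen with earlier results of these data known. Of 37 lists, 3 were added once row names were known, and 22 had tested rows. Named were called rows with a symbol, the 8 symbol rows of lowest p in each direction with a group mean of at least 5 CPM, the called, most abundant and most changed members of each list, a fixed set of 18 genes, and the 2 unnamed called rows and on-off rows ranked first. Other names were chosen after their values were seen, among them RAET1L, LOC101904087 and CFAP221.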

Additional observations from a re-analysis of the deposited data

Results flagged for a closer look

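In each named gene the highest and lowest of the 5 libraries of a group were compared with the rest by Dixon's test on log2(CPM + 0.5). Of 133 groups tested 14 had a library far from the others, where chance alone gives about 1 in 20. No explanation was tested for any of them.

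ICSI replicate 1 was high in ULBP27, at 83.8 CPM against 15.3 to 22.0 in the other 4 ICSI libraries. It was high in ULBP3 (34.98 against 4.82 to 6.36 CPM) and in LOC112445446 (98.9 against 9.40 to 16.2 CPM) as well. In XIST the same library was low, at 1.28 CPM against 22.9 to 47.5.

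ICSI replicate 5 was high in DUXA (710 CPM against 94.5 to 162) and in NWD2 (4.24 against 1.14 to 1.70). ICSI replicate 2 was high in TLE1 (13.1 CPM against 5.26 to 6.79). ICSI replicate 3 was the 1 ICSI library with counts on DPRX, a PRD-like homeobox gene, at 0.783 CPM.

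Parthenogenetic replicate 6 was low in CHMP1B (10.8 CPM against 30.4 to 42.5) and high in the collagen gene COL7A1 (5.26 against 0.352 to 0.979). Parthenogenetic replicate 5 was low in NCBP2-AS2 (0.508 CPM against 1.87 to 2.58) and high in DPRX (1.32 against 0.0426 to 0.268). Parthenogenetic replicate 2 was high in the WNT cofactor gene PYGO2 (2.09 CPM against 0.270 to 0.474). Parthenogenetic replicate 3 was high in LOC112445394 (0.739 CPM against 0 to 0.0771), a row chosen after its values were seen. LOC112445394 was lower in parthenogenetic than in ICSI libraries, and edgeR did not call it in the main fit (adjusted p = 0.813). It was called lower by edgeR without parthenogenetic replicate 3 (adjusted p = 0.0343). DESeq2 (adjusted p = 0.001) and limma voom (adjusted p = 0.0383) called it lower as well.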

How the results depend on the processing

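The 12 called rows kept their direction under all alternatives run. They were called again with the other scaling factors, filters, robust dispersion, limma voom and each left-out library. With all 15 libraries in the fit, or with genes detected as a covariate, 10 of the 12 were called. DESeq2 called 9 of them (adjusted p was NA for 3), with 28 lower and 3 higher in all. With no filter 19 rows were lower, and leaving out single libraries gave 12 to 19 lower (19 without ICSI replicate 5) and 0 higher. The replicate block (4 shared replicate numbers, 8 libraries) left 2 lower and 0 higher. Deviations of same-numbered libraries had correlations of 0.0414 to 0.0727, all positive, and not each was the highest of its library. Other pairs ran from -0.165 to 0.110. These few correlations cannot decide whether the numbers pair libraries. Under the block SNURF had -7.215 (edgeR adjusted p = 0.109), ULBP27 -8.39 (0.113) and ULBP3 -11.18 (0.523). On-off rows were 12 at 2 and 1 CPM, 3 at 10 and 0.5 CPM, and 6 to 15 without single libraries.

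Over the 64 named genes and 20 alternatives, 1235 values kept their side, 10 passed the threshold, 6 lost it and 29 turned sign in 17 genes, none of them called. ARGFX turned with the covariate (-0.043), MARCH7 with the block (0.13), and RPL31 with voom (-0.055), the block (-0.24) and the covariate (-0.094). Without single libraries the ranges of log2 fold change were -0.21 to 0.37 (ARGFX), -0.66 to 0.037 (RARS), -2.31 to 0.15 (PYGO2), -0.43 to 0.18 (CNTRL), -0.22 to 0.18 (MAD2L1), -0.052 to 0.36 (SEPT7), -0.069 to 1.88 (SEPT4), -0.36 to 0.17 (MARCH7), -0.22 to 1.35 (MARCH2), -0.14 to 0.16 (RPL31), -0.077 to 1.56 (ZNF619), -0.032 to 0.33 (PAPD4), -0.46 to 0.022 (ZCCHC6), -0.078 to 0.96 (RNF17), -0.64 to 0.57 (COL6A6), -0.23 to 1.59 (COL7A1) and -0.54 to 0.055 (CYR61). Library measures ranged from -1631 to -270.3 genes detected, 0.75 to 2.46 points in the 20 highest rows and -0.0785 to 0.0120 in correlation.

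List medians moved with the block for BIK, the 1 gene of its list (-2.155), NWD2 (0.36), poly(A) polymerases (0.32), meiosis genes (-0.38) and collagens (-0.72), and with the covariate for zinc fingers (0.54). Without single libraries medians ranged from -0.40 to 0.54 (WNT), -2.79 to -0.13 (BIK), -0.17 to 0.35 (MARCH), -9.78 to -7.57 (NKG2D ligands), 0.43 to 2.13 (NWD2) and -0.23 to 0.12 (poly(A) polymerases). The cause was not tested. Low counts and spread limit most rows to changes of several fold.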
